A study of Mus musculus with 9 samples.

Results

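Vcam1, Icam1, F11r, Cd47, Pvr and Nectin2 encode surface proteins that leukocytes bind through their own receptors. These 6 genes were picked by name from a table of 56289 genes, with earlier results of these data known. The libraries came from a culture labelled as RAW264.7, a murine macrophage-like line of BALB/c origin. The 3 Con libraries are from untreated cells, the 3 TNF-α libraries from cells stimulated with TNF-α for 24 h, and the 3 TNF-α+WBT libraries from cells that received TNF-α together with WBT (Wang Bi Tablet, a herbal preparation) for 24 h. The last group is written WBP in the labels, which is read here as the TNF-α+WBT group of the study. WBT was added only with TNF-α, so no library shows WBT alone, and all 9 libraries come from the same cell line. Poly(A) RNA was sequenced as paired ends. The study calls the 3 libraries of a group biological replicates, and nothing in the sources ties them to separate cultures, so the p-values below measure the spread between these libraries, which may in part be technical.

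Leukocytes slow, stop and cross a tissue boundary by binding ligands on other cells. VCAM-1, the product of Vcam1, is bound by the integrin α4β1, and ICAM-1 is bound by the β2 integrins LFA-1 and Mac-1. Both ligands are textbook targets of TNF-α acting through NF-κB, the transcription factor that is held in the cytoplasm by IκB proteins, and both are known in the inflamed synovium of rheumatoid arthritis. JAM-A, the product of F11r, is a junction protein that also binds LFA-1. CD47 binds SIRPα on phagocytes and restrains engulfment. PVR (CD155) and Nectin-2 (CD112) pair with DNAM-1 and TIGIT on T cells and natural killer cells.

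The values are FPKM, the fragments per kilobase of transcript divided by library depth, so levels can be compared between genes. Depth was estimated from the steps in low values at 16930000 to 26280000 fragments per library, and counts of fragments below are approximate, since only 49.9% to 56.0% of a library's low values came within 0.1 of whole fragments. Genes above 0 FPKM in at least 3 libraries, 25417 in all, were tested with limma on log2(FPKM + 0.1), a scale that understates the change of low genes, and a gene was called at a Benjamini-Hochberg adjusted p under 0.05. An exact permutation test of 3 libraries against 3 cannot give a p below 0.1.

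The cell type on the label was checked against markers. Of 15 macrophage genes, Ptprc, Spi1, Adgre1, Itgam, Tyrobp and Cybb were listed at 0 in all 9 libraries, and 2 were above 1 FPKM in every library, so the libraries lacked defining transcripts of the labelled cell type. Summed over the list, macrophage markers came to 7.85 to 8.68 FPKM in Con, 9.96 to 10.7 in TNF-α and 9.90 to 12.2 in TNF-α+WBT. Of 12 fibroblast markers, 10 were above 1 FPKM in every library, with Lum listed at 0, and their sum was 4820 to 5080 FPKM in Con, 5180 to 5440 in TNF-α and 5100 to 5230 in TNF-α+WBT. The sum is dominated by a few abundant genes. Of 11 tested fibroblast markers, 2 were called higher in TNF-α than in Con (Col1a1 and Col1a2, by 0.28 and 0.27 on the log2 scale) and 2 lower (Pdgfrb and Postn, at -0.52 and -0.59). These 4 are named after their values were seen. Of 12 Schwann cell markers, 8 were above 1 FPKM in every library, and their sum was 925 to 982 FPKM in Con, 751 to 813 in TNF-α and 817 to 846 in TNF-α+WBT. Of 11 tested Schwann cell markers, 5 were called lower in TNF-α than in Con. In the same comparison 4.86% of all tested genes were called in either direction. Endothelial markers, with 1 of 12 above 1 FPKM in every library and Tie1 and Emcn listed at 0, summed to 1.41 to 2.62 FPKM over the 9 libraries. These shifts accompany the comparisons below, and their part in them was not tested. In bulk RNA, fewer cells of a type and less RNA per cell cannot be told apart.

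In untreated cells the 6 genes covered a wide range of levels. Pvr and Cd47 stood highest, with group means of 23.2 and 21.2 FPKM, and their libraries overlapped. Vcam1 followed at 10.7 FPKM, Nectin2 at 8.51 and F11r at 3.11, with no overlap between neighbours in this order. Icam1 was at the bottom with 0.00714 FPKM. After TNF-α, Vcam1 moved to the top at 47.1 FPKM, above Cd47 at 38.6 and Pvr at 25.1, and none of the neighbouring genes overlapped. With WBT added, Vcam1 at 39.3 FPKM and Cd47 at 37.3 overlapped, as did Cd47 and Pvr, which was at 24.7. The order of Nectin2, F11r and Icam1 was the same in all 3 groups.

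**Figure D1:**
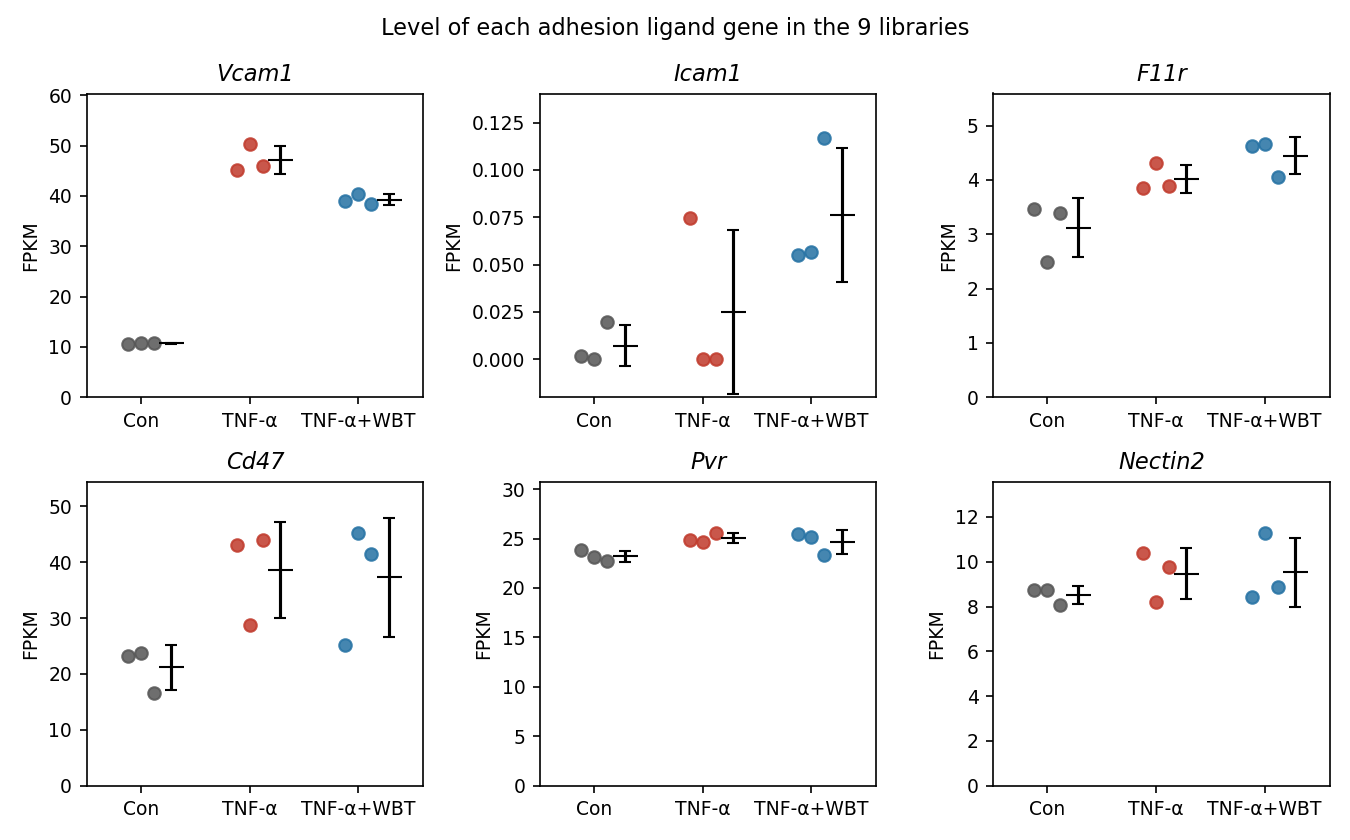
Level in FPKM (vertical axes, which differ between panels) of the 6 genes in the 9 libraries, grouped as Con (grey), TNF-α (red) and TNF-α+WBT (blue). Each point is a library, and the horizontal bar with whiskers is the mean ± SD of 3 libraries. Vcam1 stands at 10.6 to 10.8 FPKM in Con and at 38.4 or more in every stimulated library, while Icam1 is at or below 0.117 FPKM throughout.

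Vcam1 was the only member called in TNF-α against Con, with a rise of more than 4-fold, and it remained far above Con with WBT. The gene (ENSMUSG00000027962) lies on the minus strand of chromosome 3 from 116109949 to 116129688 in GRCm38. Its level was 10.6, 10.8 and 10.7 FPKM in Con. It was 45.1, 50.3 and 45.9 FPKM after TNF-α and 39.0, 40.4 and 38.4 FPKM when WBT was present. The 3 groups did not overlap, and Con was the tightest of them, with an SD of 0.123 FPKM against 2.84 in TNF-α and 1.01 in TNF-α+WBT (n = 3 each). These levels rest on about 737.9 to 3847.7 fragments per library.

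From Con to TNF-α, Vcam1 rose by 2.13 on the log2 scale (SE 0.05, 95% interval 2.02 to 2.23, 4.36-fold, limma adjusted p = 2.08e-07), the third smallest p of all genes tested. It was the only 1 of the 6 members called, where 4.86% of all tested genes were called in either direction and 2.94% as higher. The thresholds of the study, a fold change above 2 together with an unadjusted p below 0.05, were applied here to the limma fit. Vcam1 was also the only member past them, where 2.42% of genes passed. From Con to TNF-α+WBT, Vcam1 rose by 1.86 (SE 0.05, 95% interval 1.76 to 1.97, 3.64-fold, limma adjusted p = 6.27e-07). Again it was the only member called, against 3.71% of all genes in either direction and 2.31% as higher, and the only member past the thresholds of the study, against 2.29%. The comparisons with Con share the 3 Con libraries.

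Between TNF-α and TNF-α+WBT, every library with WBT had less Vcam1 than every library without it. The difference was -0.26 on the log2 scale (SE 0.05, 95% interval -0.37 to -0.15, a ratio of 0.835), with an unadjusted limma p of 0.000499 and an adjusted p of 0.3, and the exact permutation p was 0.1. Vcam1 thus did not pass the test, nor did any other member, and none passed the thresholds of the study, which 1.12% of genes did. It ranked 42 of 25417 by p, and the only gene called among all of them (0.00393%) was March8, a ubiquitin ligase gene named here after its values were seen, at 11.8 FPKM in TNF-α and 27.1 in TNF-α+WBT. Unadjusted, 6.31% of genes were under 0.05, and in 5.61% of genes, as in Vcam1, all WBT libraries lay below all TNF-α libraries. Against Con, the lower bound for Vcam1 in TNF-α+WBT was 3.38-fold.

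**Figure D2:**
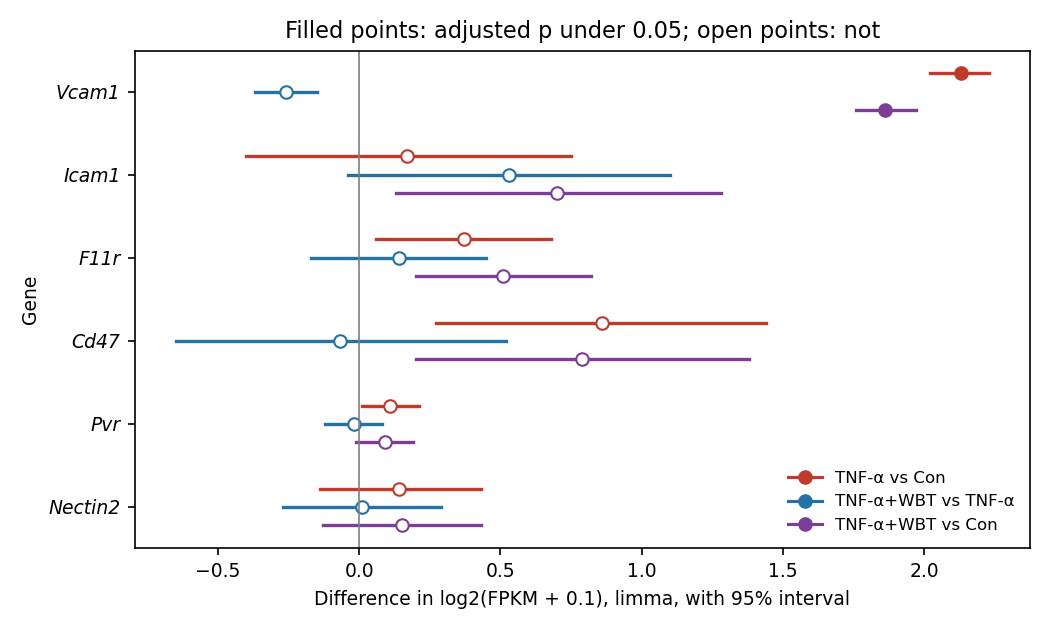
Difference in log2(FPKM + 0.1) between groups (horizontal axis) for the 6 genes (vertical axis), with 95% intervals from limma over 9 libraries. Red is TNF-α against Con, blue TNF-α+WBT against TNF-α and purple TNF-α+WBT against Con. The filled points, adjusted p under 0.05, are the 2 comparisons of Vcam1 with Con at 2.13 and 1.86.

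The rise of Vcam1 was carried by its main annotated transcript, and a shorter transcript rose with it. Vcam1-201 held 87.7% to 92.8% of the gene in each library and Vcam1-203 held 5.06% to 9.28%. Mouse cells are known to make a truncated VCAM-1 beside the full transmembrane protein. The transcripts share their coding sequence up to the exon junction shown here and then part, which is why both are printed, on the coding strand of GRCm38 with the last 30 shared bases in lower case and the bases that differ in capitals (Vcam1-201 within chr3:116121014-116124412, its first 60 bases after the junction, and Vcam1-203 within chr3:116123687-116124412, up to the end of its coding sequence).
Vcam1-201: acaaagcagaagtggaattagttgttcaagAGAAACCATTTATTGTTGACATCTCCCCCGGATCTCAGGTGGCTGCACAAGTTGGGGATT
Vcam1-203: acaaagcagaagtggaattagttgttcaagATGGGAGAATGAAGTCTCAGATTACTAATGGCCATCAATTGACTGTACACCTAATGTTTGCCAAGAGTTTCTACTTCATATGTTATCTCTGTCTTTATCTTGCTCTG

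Vcam1-201 was at 9.65 ± 0.334 FPKM in Con, 42.7 ± 2.41 in TNF-α and 35.4 ± 1.72 in TNF-α+WBT (SD, n = 3). It rose by 2.13 from Con to TNF-α (limma adjusted p = 1.46e-05 over 80149 transcripts tested) and by 1.86 from Con to TNF-α+WBT (adjusted p = 3.73e-05). Vcam1-203 was at 0.736, 0.547 and 0.996 FPKM in Con, 2.93, 3.80 and 3.58 in TNF-α, and 3.57, 2.15 and 3.33 in TNF-α+WBT. It rose by 2.07 (limma adjusted p = 0.016) and 1.86 (adjusted p = 0.0323), and these calls depended on the libraries kept: the adjusted p reached 0.0717 and 0.12 with 1 library left out. These were the only 2 called of 21 tested transcripts (27 listed) of the 6 genes in either comparison with Con, where 0.635% and 0.455% of all transcripts were called, and none was called for TNF-α+WBT against TNF-α (0.0424% of all transcripts). The share of Vcam1-203 overlapped between the 3 groups. StringTie divides fragments between transcripts by estimation, and the error of that step is not in the files.

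Over the 9 libraries the genes whose level followed Vcam1 most closely were Cd74, B2m, Tmem176a, Nfkbia and Mmp9, each with a Pearson r of 0.998 on log2(FPKM + 0.1) among the 12685 genes whose mean reached 1 FPKM. Cd74, the invariant chain of MHC class II, was at 1.10, 15.0 and 10.6 FPKM in the Con, TNF-α and TNF-α+WBT means. B2m, the light chain of MHC class I, was at 212, 433 and 409 FPKM. Tmem176a was at 83.3, 201 and 186 FPKM. In all, 45 genes had an r over 0.99, and the value is a description, since the 9 points fall into the same 3 groups for every gene.

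Icam1, the other classical TNF-α target of the set, was barely detected. The gene (ENSMUSG00000037405) lies on the plus strand of chromosome 9 from 21015985 to 21028817. It was listed at 0.00193, 0 and 0.0195 FPKM in Con, 0.0749, 0 and 0 in TNF-α, and 0.0549, 0.0566 and 0.117 in TNF-α+WBT. In estimated fragments the highest library held 5.0, and 7 of the 9 libraries were at or under 3 fragments, the limit that a count of 0 allows, which is 0.0450 to 0.0699 FPKM for this gene.

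The fragments of Icam1 added up to 1.1 in Con, 4.0 in TNF-α and 10.4 in TNF-α+WBT, and all 3 libraries with WBT were above the 3 Con libraries. At such counts no fold change is given. limma gave adjusted p-values of 0.819 for TNF-α against Con, 0.816 for TNF-α+WBT against TNF-α and 0.225 for TNF-α+WBT against Con, so no change of Icam1 was detectable at this depth. An antisense gene, Gm47079, shares exon sequence with Icam1 at up to 0.128 FPKM, and since the library kit does not mark strand, fragments of the pair cannot be told apart where they overlap. The overlapping antisense genes of Vcam1 and Nectin2 were at most 0.116 and 0.331 FPKM.

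The stretch before the start of Icam1 is shown because the gene stayed near 0 in cells whose Vcam1 responded. RefSeq promoter windows on GRCm38.p6, 250 bases before to 50 after a start site, were matched for 4 of the 6 genes, with no entry for Vcam1 or Pvr. The 250 bases before the Icam1 start site (chr9:21015690-21015939, plus strand) are printed with the letters of a motif of the NF-κB type, GGAAATTCC, in capitals.
Icam1: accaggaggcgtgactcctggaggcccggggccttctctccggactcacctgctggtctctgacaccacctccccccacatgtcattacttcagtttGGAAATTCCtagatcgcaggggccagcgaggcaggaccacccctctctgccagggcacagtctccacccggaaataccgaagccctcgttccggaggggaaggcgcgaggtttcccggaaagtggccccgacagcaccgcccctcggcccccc

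This motif, searched on both strands and chosen after the window had been read, starts 153 bases before the start site and was in 0.317% of 32851 windows. A search for the general NF-κB consensus, present in 8.46% of windows, and for a looser form that overlaps it, in 11.2%, matched none of the 4 genes' windows. The letters TATAAA, present in 13.6% of windows, matched Icam1 alone, from position 14 after the RefSeq start site and so outside the stretch printed above. Counted from the start of the gene in GENCODE M21, which lies further downstream, TATAAA begins 32 bases and GGAAATTCC 198 bases before it. The AP-1 motif TGANTCA, in 7.81% of windows, matched only F11r, 109 bases before its start site. The core of the interferon response element was in 3.44% of windows and in none of the 4 genes'. A match of letters is not evidence of a bound site.

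F11r was low but measurable, and its libraries shifted upward without passing the test. The gene lies on the plus strand of chromosome 1 from 171437535 to 171464603. It was at 3.47, 2.49 and 3.39 FPKM in Con, 3.85, 4.31 and 3.89 in TNF-α, and 4.62, 4.66 and 4.06 in TNF-α+WBT, so every stimulated library was above every Con library. The difference was 0.37 for TNF-α against Con (SE 0.14, 1.29-fold, limma adjusted p = 0.21) and 0.51 for TNF-α+WBT against Con (SE 0.14, 1.43-fold, adjusted p = 0.0905). When genes with a mean under 1 FPKM were left out, the latter had an adjusted p of 0.0495. For TNF-α+WBT against TNF-α the interval ran from -0.17 to 0.45. F11r-201 made up 84.3% to 97.1% of the gene.

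Cd47 had the second highest difference with TNF-α and the widest scatter. The gene lies on the plus strand of chromosome 16 from 49800533 to 49915010. It was at 23.3, 23.7 and 16.5 FPKM in Con, 43.0, 28.7 and 44.0 in TNF-α, and 25.1, 45.3 and 41.4 in TNF-α+WBT. Each group had 2 libraries close together and 1 well below them, and all stimulated libraries were above all Con libraries. The difference from Con was 0.86 with TNF-α (SE 0.26, 95% interval 0.27 to 1.44, 1.81-fold, limma adjusted p = 0.122) and 0.79 with TNF-α+WBT (SE 0.26, 95% interval 0.20 to 1.38, adjusted p = 0.177), and neither was called. TNF-α+WBT and TNF-α differed by -0.07, with an interval from -0.65 to 0.52 that leaves room for a change in either direction.

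In the estimated transcript values, the scatter of Cd47 lay in its longest transcript. The part of the estimation step in this scatter was not tested. Cd47-201, of 5250 bases, was at 16.7, 17.9 and 8.90 FPKM in Con, 32.0, 16.1 and 33.2 in TNF-α, and 14.3, 33.1 and 29.1 in TNF-α+WBT, and the low values are those of the same 3 libraries in which the gene was low. Beside it the files assign most of the rest to Cd47-205 and Cd47-210, of 1316 and 1313 bases, and these alternated. Cd47-205 was at 6.63 to 10.8 FPKM in 5 libraries and at most 0.0924 in the other 4, and Cd47-210 was at 5.44 to 10.7 FPKM in those 4 libraries and at most 0.883 in the 5. Their sum was more even than either part. It was 6.22, 5.45 and 6.65 FPKM in Con, 10.1, 11.3 and 9.96 in TNF-α, and 9.71, 11.3 and 10.8 in TNF-α+WBT.

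Taken as this sum, the short transcripts were 1.71 times as high in TNF-α and 1.74 times as high in TNF-α+WBT as in Con. The exact permutation p was 0.1 for each, the smallest this design allows. Since the sum was chosen after seeing the values, this p is a description and not a test of a rise. The ratio of TNF-α+WBT to TNF-α was 1.01 (exact p = 1). Cd47-201 alone gave a ratio of 1.87 for TNF-α against Con with an exact p of 0.3, its groups overlapping. Both short transcripts lack a 63-base exon of Cd47-201 (chr16:49869018-49869080). Cd47-205 has 963 annotated coding bases and Cd47-201 has 972, while Cd47-210 has no annotated coding sequence, so the sum joins a coding and a non-coding form. The 3 transcripts differ in the stretch shown here on the plus strand. The coding tail of Cd47-205 (within chr16:49906783-49910870) is printed with the bases absent from Cd47-201 in capitals, that of Cd47-201 (within chr16:49906783-49910874) without capitals, and the stretch of Cd47-210 (within chr16:49898103-49906810) with its extra 45-base exon in capitals. These stretches are given because a reader of the transcript values must tell the 3 forms apart.
Cd47-205: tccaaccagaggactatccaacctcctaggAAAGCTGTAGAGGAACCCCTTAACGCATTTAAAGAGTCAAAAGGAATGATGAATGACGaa
Cd47-201: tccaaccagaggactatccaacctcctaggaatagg
Cd47-210: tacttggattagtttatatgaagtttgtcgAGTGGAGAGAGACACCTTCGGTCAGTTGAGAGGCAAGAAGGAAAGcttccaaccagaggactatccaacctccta

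**Figure D3:**
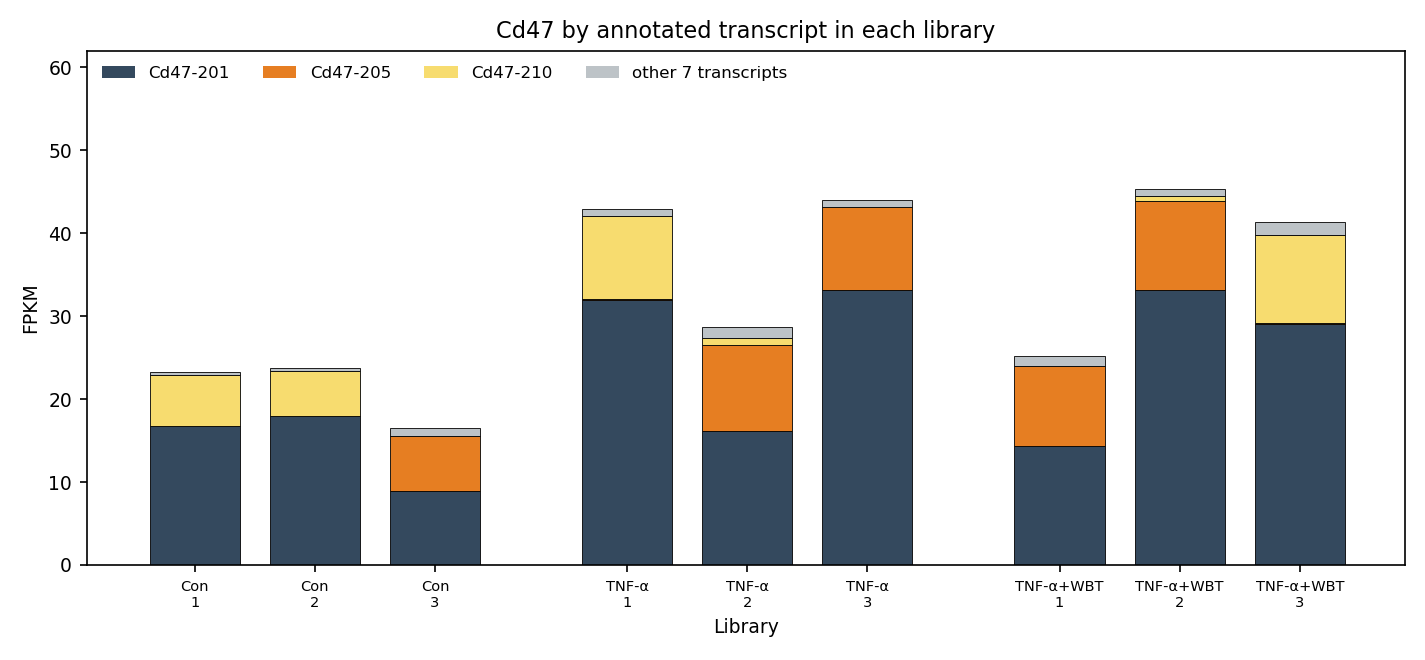
Stacked level in FPKM (vertical axis, from 0) of the annotated Cd47 transcripts in each of the 9 libraries (horizontal axis, group and replicate number). Dark blue is Cd47-201, orange Cd47-205, yellow Cd47-210 and grey the sum of the other 7. Orange and yellow replace each other between libraries of all 3 groups, and dark blue is lowest in Con 3, TNF-α 2 and TNF-α+WBT 1, at 8.90, 16.1 and 14.3 FPKM.

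Pvr and Nectin2, neighbours in the nectin family on the minus strand of chromosome 7 (19903578 to 19921160 and 19716644 to 19750483), showed little difference. Pvr was at 23.8, 23.1 and 22.7 FPKM in Con, 24.9, 24.7 and 25.6 in TNF-α, and 25.5, 25.2 and 23.3 in TNF-α+WBT. Its TNF-α libraries were all above Con, but by only 0.11 on the log2 scale (SE 0.04, 95% interval 0.01 to 0.21, limma adjusted p = 0.266). The intervals of Pvr bound any change closely, at -0.12 to 0.08 for TNF-α+WBT against TNF-α and -0.01 to 0.19 for TNF-α+WBT against Con (adjusted p = 0.425). Pvr-201, the main transcript, held 62.7% to 67.0% of the gene in every library.

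Nectin2 was at 8.74, 8.73 and 8.07 FPKM in Con, 10.4, 8.19 and 9.77 in TNF-α, and 8.42, 11.3 and 8.87 in TNF-α+WBT, with overlapping groups. The difference was 0.14 for TNF-α against Con (95% interval -0.14 to 0.43, limma adjusted p = 0.668), 0.01 for TNF-α+WBT against TNF-α (-0.27 to 0.29, adjusted p = 1) and 0.15 for TNF-α+WBT against Con (-0.13 to 0.43, adjusted p = 0.658). It is expressed as a pair of transcripts with different ends. They share the junction printed here in lower case on the coding strand and differ after it, in capitals (Nectin2-201 within chr7:19721447-19730067, Nectin2-202 within chr7:19724810-19730067), and are shown because the level of the gene is divided between them.
Nectin2-201: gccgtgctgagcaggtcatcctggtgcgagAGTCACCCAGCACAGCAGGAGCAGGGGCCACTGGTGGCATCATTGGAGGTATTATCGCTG
Nectin2-202: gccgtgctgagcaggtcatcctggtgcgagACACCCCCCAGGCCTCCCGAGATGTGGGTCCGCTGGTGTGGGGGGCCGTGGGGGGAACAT

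Nectin2-201 held 30.6% to 36.9% of the gene in Con, 29.6% to 45.9% in TNF-α and 40.6% to 46.3% in TNF-α+WBT, so its share with WBT was above all Con libraries and overlapped the TNF-α libraries. Its level was 3.11, 3.22 and 2.47 FPKM in Con, 3.07, 3.76 and 3.48 in TNF-α, and 3.82, 5.24 and 3.60 in TNF-α+WBT. The difference between TNF-α+WBT and Con was 0.50 (95% interval 0.08 to 0.92, limma adjusted p = 0.558), and no Nectin2 transcript was called in any comparison.

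Over the 6 genes, 4 had all TNF-α libraries above all Con libraries (Vcam1, F11r, Cd47 and Pvr), where this was so for 11.1% of all tested genes. Against Con, 4 were higher without overlap in TNF-α+WBT (Vcam1, Icam1, F11r and Cd47), where 10.2% of all genes were. Over the 5 genes other than Icam1, left out here because its level was too low for a fold change, the median difference was 0.37 in the first of these comparisons and 0.51 in the second, beside a median of 0 over all genes. With Icam1 the medians were 0.27 and 0.61. For TNF-α+WBT against TNF-α the median of the 5 was -0.02 (-0.01 with Icam1), and Vcam1 was the only member whose groups did not overlap.

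Other ligands of leukocyte receptors included genes called in both directions. Of 26 listed genes, 25 were in the table and 19 were tested, with a median difference of -0.01 for TNF-α against Con. In this comparison 2 were called higher and 1 lower, where 4.86% of all tested genes were called in either direction. All 3 changed by less than 1.5-fold and are named after their values were seen. Cd24a and Cd44, glycoproteins that bind selectins and hyaluronan respectively, rose by 0.42 (limma adjusted p = 0.000952) and 0.31 (adjusted p = 0.0138), and Cadm1, a relative of the nectins, fell by 0.49 (adjusted p = 0.0039). The same 3 genes were called in TNF-α+WBT against Con, at 0.28, 0.35 and -0.41, where 3.71% of all tested genes were called. The selectin gene Selp and the selectin ligand gene Glycam1 were listed at 0 in all 9 libraries, and the mucosal relative Madcam1 was at 0.0325, 0.117 and 0.111 FPKM in the 3 group means. Icam5 and Cd34, also named after their values were seen, were higher in every stimulated library than in every Con library without being called. Of all tested genes, 11.1% were higher without overlap in TNF-α than in Con, and 10.2% in TNF-α+WBT than in Con. Icam5 was at 0.584, 1.05 and 0.998 FPKM in the group means (0.76 for TNF-α against Con, limma adjusted p = 0.069), and Cd34, which can present sugars to selectins, was at 0.0302, 0.156 and 0.189 FPKM (0.93, adjusted p = 0.115). Cd34 rested on at most 14.0 estimated fragments in a library, so the size of its difference is uncertain. The differences between these genes and Vcam1 were not tested.

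Among the receptors that bind the 6 ligands, 13 of 15 were tested. In TNF-α against Con, where 4.86% of all tested genes were called, the only receptor gene called was Itgb2, the β2 integrin chain. It was at 1.47 ± 0.299 FPKM in Con, 2.68 ± 0.201 in TNF-α and 2.95 ± 0.508 in TNF-α+WBT (SD, n = 3). The difference from Con was 0.84 (SE 0.17, limma adjusted p = 0.0287) and 0.96 (SE 0.17, adjusted p = 0.0183). Itgam, an α chain that pairs with it, and Cd226, which encodes DNAM-1, were listed at 0 in all 9 libraries. Itgal, the α chain of LFA-1, was at 0.0404, 0.00623 and 0.0404 FPKM in the Con, TNF-α and TNF-α+WBT means. It rested on at most 6.0 estimated fragments in a library, so the rise of Itgb2 does not show a rise of a whole β2 integrin. Itgb2 also belongs to the macrophage list, in which it was the only gene called. The chains of the VCAM-1 receptor, named for that role, were both measured, with the β1 chain Itgb1 at 269, 271 and 267 FPKM in the group means and the α4 chain Itga4 at 1.31, 2.12 and 2.08, where Itga4 had an adjusted p of 0.0519 for TNF-α against Con. With WBT 1 more gene was called against Con, where 3.71% of all tested genes were called. It was Thbs1, which encodes the CD47 ligand thrombospondin 1 and fell by 0.26 (adjusted p = 0.0184). Thbs1 was already at -0.18 in TNF-α against Con (limma adjusted p = 0.0812). TNF-α+WBT differed from TNF-α by only -0.09 (adjusted p = 0.824).

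A further list of 15 genes held cytoskeletal anchors, proteases that cut adhesion molecules, and the phospholipase gene Plcb4. Of these, 3 were called higher and 1 lower in TNF-α than in Con, where 4.86% of all tested genes were called in either direction. Mmp9, a secreted gelatinase, rose from 0.182 ± 0.0430 to 4.14 ± 0.166 FPKM (SD, n = 3), and was at 3.05 ± 0.209 FPKM with WBT. The rise with TNF-α was 3.92 on the log2 scale (SE 0.15, limma adjusted p = 2.58e-06). That is 15.1-fold on FPKM + 0.1, which understates the change because the gene was low in Con. The other 3 changed by less than 1.5-fold and are named after their values were seen. Adam17, the protease known to release the outer part of VCAM-1, rose by 0.47 (adjusted p = 0.000464), Msn, the anchor protein moesin that binds VCAM-1 and ICAM-1, rose by 0.26 (adjusted p = 0.00153), and Adam10 fell by 0.19 (adjusted p = 0.0404). With WBT the 3 that rose were called against Con again and Adam10 was not (adjusted p = 0.0744). In that comparison 3.71% of all tested genes were called in either direction.

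Regulators of the TNF-α response rose beside Vcam1. Of 18 listed, chosen with earlier results of these data known, 10 were called higher and none lower in TNF-α than in Con. Of all tested genes, 2.94% were called higher. The median difference of the 18 was 0.45. The IκB genes Nfkbia and Nfkbie, which NF-κB itself induces, went from 24.7 ± 1.64 to 80.3 ± 1.52 FPKM and from 4.78 ± 1.38 to 28.3 ± 5.64 (limma adjusted p = 6.36e-07 and 0.000582). The NF-κB subunit genes Relb and Nfkb2 rose by 2.15 and 1.23 (adjusted p = 1.65e-05 and 6.22e-06). Tnfaip3, which encodes the feedback inhibitor A20, rose by 1.62 (adjusted p = 0.00681), the interferon regulatory factor gene Irf1 by 0.69 (adjusted p = 0.00608) and the adaptor gene Traf2 by 0.61 (adjusted p = 0.00628).

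With WBT, 9 of the 18 were called higher than in Con and none lower, where 2.31% of all tested genes were called higher. The rise was 2.84-fold for Nfkbia, 2.14-fold for Nfkb2, 4.02-fold for Relb, 4.13-fold for Nfkbie and 2.79-fold for Tnfaip3. Comparing TNF-α+WBT with TNF-α, none of the 18 was called, 4 had a positive difference and the median was -0.11. The differences ran from -0.52 for Tnfrsf1a to 0.43 for Ikbkg. Nfkbia, named after its values were seen, was at -0.19 (limma adjusted p = 0.559). No gene of the other 3 lists was called in this comparison either. The plot of the lists shows both comparisons on the same scale.

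**Figure D4:**
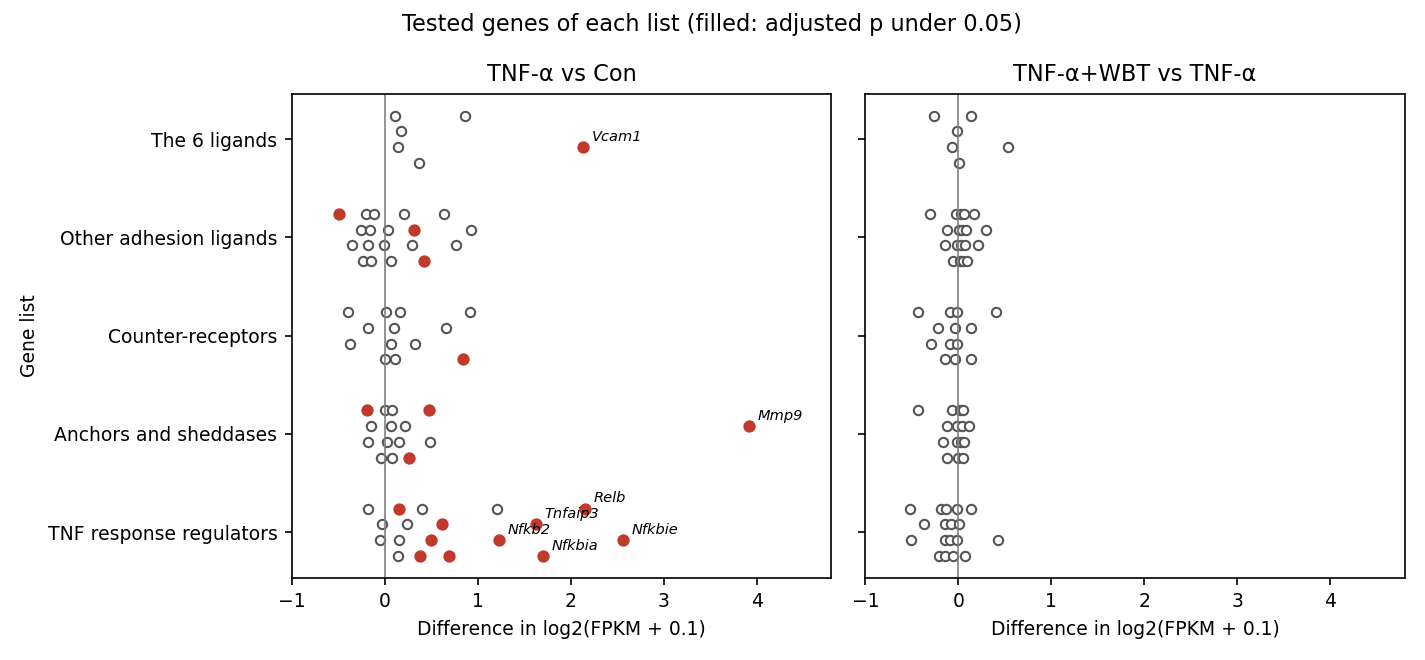
Difference in log2(FPKM + 0.1) (horizontal axis) of every tested gene in 5 lists (vertical axis; height within a list only separates the points), for TNF-α against Con (left) and TNF-α+WBT against TNF-α (right). Filled red points have an adjusted p under 0.05 and those beyond 1 are named. Vcam1 at 2.13 stands among regulators such as Relb at 2.15, while no point on the right is filled.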

How the data were processed

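For 3 Con, 3 TNF-α and 3 TNF-α+WBT libraries the authors deposited FPKM values for 56289 genes and 144726 transcripts. The study's workflow names HISAT2, StringTie and Ballgown. Versions and genome build are not given in the sources used here, and 98.0% of the gene identifiers were found in GENCODE M21 (GRCm38). Columns were matched to samples by name. Depth was estimated from 10675 genes with a single transcript. Limits in fragments cover counting error alone.

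limma 3.58.1 (R 4.3.3; eBayes with trend, 1 model over 9 libraries, Benjamini-Hochberg) was run on log2(FPKM + 0.1), for genes or transcripts with 3 or more libraries over 0. Tables were handled in Python 3.11.15 with pandas 2.3.3, and single values compared with scipy 1.17.1 by two-sided exact permutation tests. The 6 members, the gene lists and the tests were chosen with earlier results of these data known. From each list, genes called with a fold change over 1.5 (at most 8) and genes at 0 in all 9 libraries were named, with the 5 genes most correlated with each called member and transcripts holding at least 5% of a member. The replicate numbers did not pair the libraries. Alternatives covered pseudocount, filter, trend, normalization, model, transcript sums, replicate block, call rule and each library left out.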

Additional observations from a re-analysis of the deposited data

How the results depend on the processing

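The call of Vcam1 in both comparisons with Con, and its absence in TNF-α+WBT against TNF-α at an adjusted p under 0.05, held under every alternative run. Its difference ranged over 2.04 to 2.16, 1.78 to 1.88 and -0.29 to -0.21. With a mean of at least 1 FPKM as filter, 2 members were called in TNF-α+WBT against Con, F11r (0.51) being the second, and Icam1 was not tested.

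Counts of called genes and transcripts moved more. The study's thresholds were applied to the limma fit, so the counts are not those the study reported. They gave 615, 284 and 583 genes and 2707, 2207 and 2689 transcripts in TNF-α against Con, TNF-α+WBT against TNF-α and TNF-α+WBT against Con. Between the stimulated groups, the count of 1 gene became 11 with a pseudocount of 0.01, 7 without trend, 2 with only 2 groups, 2 from transcript sums, 4 with fragments scaled by depth alone (an alternative chosen after seeing the data), 0 with the replicate block, and 0 to 11 with 1 library left out. The 34 transcripts became 18 and 71 with pseudocounts of 1 and 0.01, 8 with the filter, 1 with the block, and 44 to 71 with 1 library left out. Transcripts in TNF-α against Con fell from 509 to 289 without trend and 209 with the block. For TNF-α+WBT against Con they fell from 365 to 226 without trend, 220 with 2 groups and 147 with the block, and genes from 942 to 588 to 758 with 1 library left out, the lowest without Con replicate 3. The cause of these moves was not tested.

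Same-numbered libraries did not deviate together (r -0.067 to 0.095), and the replicate block changed no call of a member, but Vcam1-203 was then not called (adjusted p 0.0636 and 0.104 in the comparisons with Con). Against Con with WBT it was also not called without trend (0.0542) and with 2 groups (0.138). Leaving out 1 library turned the sign only of differences that were not called. In TNF-α against Con these were Icam1 (-0.09 to 0.31; negative without TNF-α replicate 1) and Nectin2-202 (-0.09 to 0.28). Between the stimulated groups they were Cd47 (-0.27 to 0.19), Pvr (-0.05 to 0.02), Nectin2 (-0.12 to 0.09), Vcam1-203 (-0.34 to 0.01), Cd47-201 (-0.44 to 0.27) and Pvr-201 (-0.02 to 0.03), and in TNF-α+WBT against Con Nectin2-202 (-0.23 to 0.02). Depth limits Icam1, for which 3 fragments amount to up to 0.0699 FPKM.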
